A study of Mus musculus with 9 samples.

Results

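The vanin and coenzyme A turnover genes are 10 of the 32593 genes in the deposited kidney RNA-seq table, taken by symbol: Vnn1 and Vnn3 (pantetheinases), Pank1, Pank2 and Pank3 (pantothenate kinases), Ppcs, Ppcdc and Coasy (the later steps of coenzyme A synthesis), and Nudt7 and Nudt19 (coenzyme A diphosphatases). The set was drawn up with earlier results of these libraries known, among them the low Vnn1 level in 1 genotype group. The values of Vnn1 in that group, and of the other genes in comparisons with it, are therefore given as descriptions.

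Coenzyme A carries acyl groups in fatty acid oxidation, the citric acid cycle and lipid synthesis, and it is built inside the cell from pantothenate, cysteine and ATP. Pantothenate kinases catalyse the first and controlling step, PPCS joins cysteine, PPCDC removes its carboxyl group, and COASY completes the molecule. NUDT7 and NUDT19 are peroxisomal enzymes that cleave coenzyme A, and vanin 1, an ectoenzyme anchored on the outer face of the plasma membrane and abundant in proximal tubule, splits pantetheine into pantothenate for re-use and cysteamine.

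All 9 libraries came from mouse kidney after treatment with AngII (angiotensin II, the pressor hormone of the renin-angiotensin system), with 3 libraries per group, and no untreated kidney was compared. The AngII group had the genotype Tmemfl/fl, a floxed allele without Cre. The CDH16KO-AngII group was CDH16 Cre+/Tmemfl/fl, in which the Cdh16 promoter, active in the epithelium of kidney tubules, drives Cre. The GRPR-AngII group was CDH16 Cre+/GRPRfl/fl, so it shared the Cre with CDH16KO-AngII and differed from AngII in both the Cre and the floxed allele.

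The libraries held 40731748 to 60449117 counts. The floxed gene appears in the labels as Tmem, without further name, while STING is in the title of the series. Its gene, Sting1, was measured at 3.904 ± 1.88 CPM (counts per 1e+06 counts, TMM-scaled; SD, n = 3) in AngII, 2.15 ± 0.10 CPM in CDH16KO-AngII and 2.82 ± 0.13 CPM in GRPR-AngII, with AngII library 2 at 1.77 CPM below every other library. The AngII range of 1.77 to 5.33 CPM took in both other groups. Sting1 did not reach FPKM 1 in 3 or more libraries and was not tested. The summed level of 15 proximal tubule markers was 39416 to 42946 CPM in AngII, 31587 to 39841 CPM in CDH16KO-AngII and 39814 to 57418 CPM in GRPR-AngII. Kap made up most of that sum in every library. Its level was 22504 to 27848 CPM in AngII, 19486 to 24408 CPM in CDH16KO-AngII and 24195 to 39985 CPM in GRPR-AngII. Which of 2 annotated models of Nnt, a gene that differs between mouse substrains, took the counts also varied: the second model took 93.5%, 95.8% and 0% in the AngII libraries, 34.1%, 44.0% and 0% in CDH16KO-AngII, and 0%, 19.8% and 0% in GRPR-AngII. The part of genetic background in the values below was not tested.

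The 2 diphosphatase genes lie on different chromosomes. Their log2 fold changes in CDH16KO-AngII against AngII had opposite signs, but that of Nudt19, 0.48 (SE 0.30), was 0.04 without CDH16KO-AngII library 2. The 250 bases before their RefSeq starts (GRCm38.p6) are shown, with matches to the GC box GGGCGG on either strand in capitals. Any relation of these bases to the levels was not tested. Nudt7 is read from chr8:114133324-114133573 on the plus strand and Nudt19 from chr7:35555929-35556178 on the minus strand, both written 5′ to 3′.
Nudt7: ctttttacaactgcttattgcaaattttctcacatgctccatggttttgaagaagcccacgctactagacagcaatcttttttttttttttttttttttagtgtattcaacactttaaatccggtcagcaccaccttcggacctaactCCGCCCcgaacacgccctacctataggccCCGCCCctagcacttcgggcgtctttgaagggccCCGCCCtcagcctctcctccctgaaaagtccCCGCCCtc
Nudt19: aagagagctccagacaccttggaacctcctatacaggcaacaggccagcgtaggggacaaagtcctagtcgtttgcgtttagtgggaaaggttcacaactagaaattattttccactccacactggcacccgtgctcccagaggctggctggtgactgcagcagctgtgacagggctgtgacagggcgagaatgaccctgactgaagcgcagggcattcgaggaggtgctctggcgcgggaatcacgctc
The Nudt7 stretch held 4 matches and the Nudt19 stretch 0. In the deposited annotation Nudt19 starts at 35556304 on the minus strand, so its stretch lies inside the annotated gene. Nudt7 starts there at 114133557, so all but the end of its stretch lies upstream of the gene. The 2 stretches are therefore not matched parts of their genes. A GC box was present in 35.7% of the 32851 RefSeq promoter windows of 300 bases (250 before the start and 50 after). The table had windows for 8 of the 10 genes, 12 windows in all, and Vnn1 and Coasy were not matched. Peroxisome proliferator-activated receptors bind the element DR1, a direct repeat of AGGTCA with any 1 base between the copies. DR1 occurred on either strand in 0.0396% of all windows, and a looser form, which includes it and repeats AGGNCA, in 0.381%. Neither form was found in the 12 windows, which says only that these letters are not there. The element AGGTCA by itself, which DR1 contains, was found on either strand in the windows of Ppcs and Ppcdc and in 16.3% of all windows.

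Nudt19 had the highest level of the 10 genes and Vnn3 the lowest. On the length-scaled FPKM scale the means over the 9 libraries were 164.57 ± 66.8 for Nudt19, 29.9 ± 7.79 for Coasy, 27.2 ± 12.2 for Vnn1, 14.2 ± 3.50 for Pank1, 14.02 ± 3.31 for Ppcs, 5.38 ± 1.06 for Ppcdc, 5.15 ± 1.02 for Pank2, 4.05 ± 1.12 for Pank3, 2.08 ± 0.672 for Nudt7 and 0.0311 for Vnn3 (SD, n = 9). Nudt19 lay above Coasy, Ppcs above Ppcdc and Nudt7 above Vnn3 with no overlap of their ranges. The neighbours Coasy and Vnn1 were not separated, since Coasy was the higher in 4 of 9 libraries. Vnn1 was above Pank1 in 7 of 9 libraries, Pank1 above Ppcs in 5, Ppcdc above Pank2 in 5 and Pank2 above Pank3 in 8, all with overlapping ranges. Pank3 exceeded Nudt7 in all 9 libraries although their ranges overlapped. Nudt19, the gene with the highest level, is the diphosphatase known as the main one in mouse kidney, and Nudt7, with the lowest level of the 9 genes that passed the filter, is the one known mainly from liver.

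**Figure D1:**
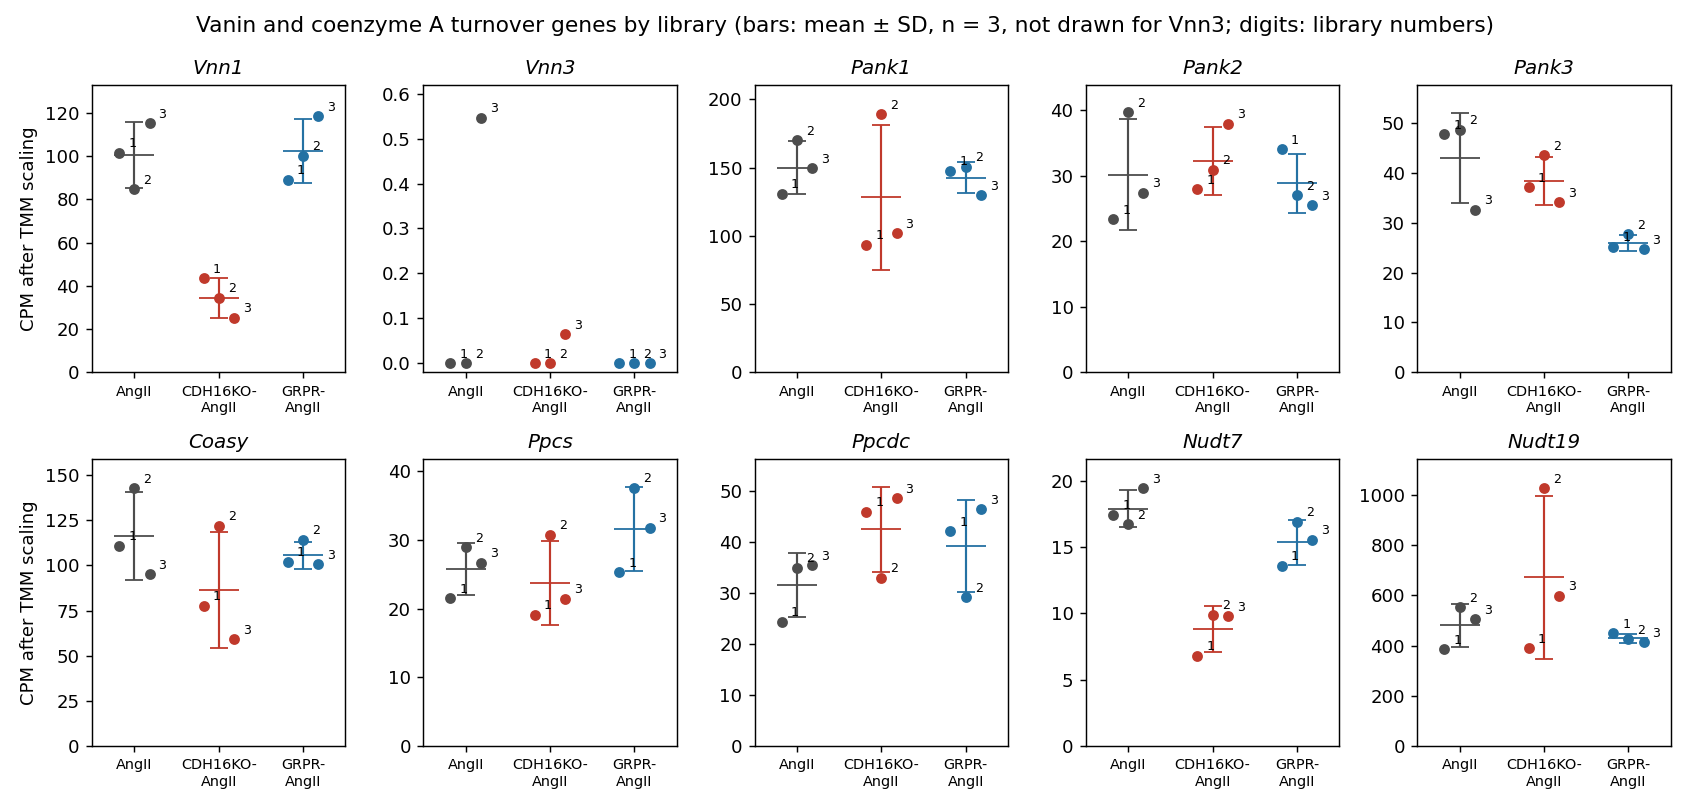
Level of each gene in each library, in counts per 1e+06 after TMM scaling (vertical axes, each from about 0 and on its own scale), by group; points are libraries with their numbers and the bars give mean ± SD (n = 3). The CDH16KO-AngII points of Vnn1 (25.2 to 43.4) and Nudt7 (6.80 to 9.89) lie below all others, and the GRPR-AngII points of Pank3 (24.7 to 27.7) lie below all others.

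Vnn1, the pantetheinase that returns pantothenate to the pool, was 2.93-fold lower in CDH16KO-AngII than in AngII, and GRPR-AngII was close to AngII. Its level was 102, 84.8 and 115 CPM in AngII, 43.4, 34.4 and 25.2 CPM in CDH16KO-AngII and 89.1, 100.2 and 119 CPM in GRPR-AngII. Every CDH16KO-AngII library was below every library of the other groups, while AngII and GRPR-AngII overlapped. On the FPKM scale the values were 34.4, 30.1 and 42.1 in AngII, 14.9, 12.3 and 8.33 in CDH16KO-AngII, and 30.3, 35.98 and 36.6 in GRPR-AngII. The log2 fold change was −1.55 (SE 0.21) in CDH16KO-AngII against AngII, and 1.58 (SE 0.21) in GRPR-AngII against CDH16KO-AngII, a comparison that shares the CDH16KO-AngII libraries. Vnn1 was chosen by these values. In whole kidney, fewer cells of a type and less RNA per cell cannot be told apart.

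The comparison of GRPR-AngII with AngII did not serve to choose Vnn1. Its log2 fold change there was 0.03 (SE 0.20, edgeR quasi-likelihood adjusted p = 0.981), a difference smaller than the spread within either group, whose means were 103 ± 14.9 and 101 ± 15.3 CPM (SD, n = 3). The small value changed sign between alternatives, from −0.09 without GRPR-AngII library 3 to 0.14 without AngII library 3.

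Vnn1 is expressed in proximal tubule, and the level of that segment's markers was also somewhat lower in 2 of the CDH16KO-AngII libraries. The mean log2(CPM + 1) of the 15 markers was 9.69, 9.62 and 9.41 in AngII, 9.28, 9.70 and 9.20 in CDH16KO-AngII, and 9.58, 9.63 and 9.67 in GRPR-AngII. Measured from that mean in the same library, Vnn1 lay at −3.00, −3.20 and −2.55 in AngII, −3.81, −4.56 and −4.49 in CDH16KO-AngII, and −3.08, −2.97 and −2.77 in GRPR-AngII. The CDH16KO-AngII libraries were below all others on this scale, which uses the Vnn1 values that chose the gene. Library 2 of CDH16KO-AngII had the highest marker mean of all 9 libraries and Vnn1 at 34.4 CPM. The part of proximal tubule content in the Vnn1 values was not tested. With the libraries scaled to these markers, a setting added after seeing the data that moved the median of all genes in CDH16KO-AngII against AngII from 0.01 to 0.20, the Vnn1 log2 fold change was −1.38 and was no longer called. The segment markers in the CDH16KO-AngII against AngII comparison had a median log2 fold change of −0.18, against 0.01 for all genes. Of the 15, 12 were below 0 (48.1% of all genes) and 4 had an unadjusted p under 0.05 (8.45%). Ranges did not overlap for 4 of 15 (12.2% of all genes), and edgeR called 0 (0.168%). The 4 at an unadjusted p under 0.05 went both ways, with Slc34a1 (−0.53) and Slc22a12 (−0.53) lower and Slc5a2 (0.38) and Slc22a8 (0.37) higher.

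Vnn3, the second pantetheinase gene of the table, was nearly undetected. It lies 24844 bases upstream of Vnn1 on the same strand, at chr10 23851462 to 23869843 against 23894688 to 23905343 for Vnn1 (GRCm38). The longest transcripts of the 2 genes are 67.4% identical over 1349 aligned bases and share no stretch at 95% identity. Vnn3 had 24 counts (0.547 CPM) in AngII library 3, 3 counts (0.0638 CPM) in CDH16KO-AngII library 3 and 0 in the other 7 libraries. A count of 0 allows up to 3 counts, or 0.0483 to 0.0683 CPM in these libraries, so a lower level was not detectable at this depth. Vnn3 did not pass the filter and was not tested. AngII library 3 had the highest summed level of 6 urothelial and injured tubule markers, 34.4 CPM against at most 16.9 CPM in the others. Lcn2 made up 26.1 CPM of that sum. The summed level of 11 leukocyte markers was also highest in AngII library 3, at 160 CPM against 79.4 to 151 CPM. The part of either sum in the Vnn3 counts was not tested.

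The peroxisomal diphosphatases differed from each other. Nudt7 stood at 17.4, 16.7 and 19.4 CPM in AngII, 6.80, 9.89 and 9.79 CPM in CDH16KO-AngII, and 13.6, 16.9 and 15.6 CPM in GRPR-AngII. All 3 CDH16KO-AngII libraries were below the lowest of the other 6. The log2 fold change was −1.02 (SE 0.18) in CDH16KO-AngII against AngII and 0.80 (SE 0.18) in GRPR-AngII against CDH16KO-AngII, and edgeR did not call Nudt7 in either at an adjusted p of 0.05 over all genes. DESeq2 called it in both, where it called 1.68% and 1.4% of all genes. Against AngII, GRPR-AngII was at −0.22 (SE 0.18, edgeR adjusted p = 0.798). Measured from the mean of the proximal tubule markers, Nudt7 in the AngII libraries averaged −5.34 ± 0.24 (SD, n = 3), in the CDH16KO-AngII libraries −6.12 ± 0.30 and in the GRPR-AngII libraries −5.60 ± 0.12, and again the CDH16KO-AngII libraries were the lowest 3.

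Nudt19 stood at 386, 553 and 505 CPM in AngII, 390.2, 1026 and 598 CPM in CDH16KO-AngII, and 449, 425 and 413 CPM in GRPR-AngII. The CDH16KO-AngII libraries ran from near the lowest value of all 9 (library 1) to the highest (library 2), and the groups overlapped. The log2 fold change of 0.48 (SE 0.30) against AngII was 0.04 without CDH16KO-AngII library 2, and −0.65 (SE 0.30) for GRPR-AngII against CDH16KO-AngII was −0.20 without it. Against AngII, GRPR-AngII was at −0.17 (SE 0.29, edgeR adjusted p = 0.903). Nudt19 overlaps 938 bases of B230322F03Rik on the opposite strand, which had 24 to 68 counts per library against 18363 to 58127 for Nudt19.

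The FPKM ratio of Nudt19 to Nudt7 set the groups apart more than Nudt19 alone. It was 46.4, 69.5 and 54.6 in AngII, 121, 219 and 129 in CDH16KO-AngII, and 69.6, 52.7 and 55.9 in GRPR-AngII. The lowest CDH16KO-AngII ratio exceeded the highest of the other groups, while AngII and GRPR-AngII overlapped. The ratio takes in the Nudt7 values already described and is not a separate observation of them.

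Of the kinases, Pank1 carried the most transcript per length in every library. It stood at 131, 169.9 and 149.5 CPM in AngII, 93.4, 189 and 102 CPM in CDH16KO-AngII, and 148, 151 and 129.7 CPM in GRPR-AngII. Libraries 1 and 3 of CDH16KO-AngII were the lowest of the 9 and library 2 the highest, so the groups overlapped. The log2 fold change against AngII was −0.23 (SE 0.24) and ran from −0.62 without CDH16KO-AngII library 2 to −0.05 without CDH16KO-AngII library 1. GRPR-AngII differed from AngII by −0.07 (SE 0.24, edgeR adjusted p = 0.958).

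Pank2 stood at 23.4, 39.7 and 27.4 CPM in AngII, 27.9, 30.9 and 37.9 CPM in CDH16KO-AngII, and 33.995, 26.99 and 25.5 CPM in GRPR-AngII. The 3 groups overlapped throughout, and its log2 fold changes of 0.10, −0.07 and −0.16 were each smaller than their SE of 0.21. Its annotation overlaps Rnf24 on the opposite strand by 1125 bases, and 26.4% of its longest transcript matches Rnf24 at 95% identity. Rnf24 had 1630 to 4641 counts per library against 1132 to 2111 for Pank2. Since it is not stated whether counting used strand, the Pank2 values are uncertain.

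Pank3, a cytosolic kinase, was lowest in GRPR-AngII. It stood at 47.8, 48.7 and 32.6 CPM in AngII, 37.2, 43.6 and 34.2 CPM in CDH16KO-AngII, and 25.2, 27.7 and 24.7 CPM in GRPR-AngII. Every GRPR-AngII library was below every other library, and AngII overlapped CDH16KO-AngII. In GRPR-AngII against AngII the log2 fold change was −0.73 (SE 0.17), lower in 3 of 3 libraries, and it did not pass the threshold (edgeR unadjusted p = 0.00129, adjusted p = 0.540 over 12507 genes). In that comparison the ranges of 14% of all tested genes did not overlap, and Pank3 was 1 of 9 genes of the set. DESeq2 gave Pank3 the same log2 fold change of −0.73 and called it (adjusted p = 0.0363), with 0.432% of all genes called by that tool. In GRPR-AngII against CDH16KO-AngII the value was −0.57 (SE 0.17).

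**Figure D2:**
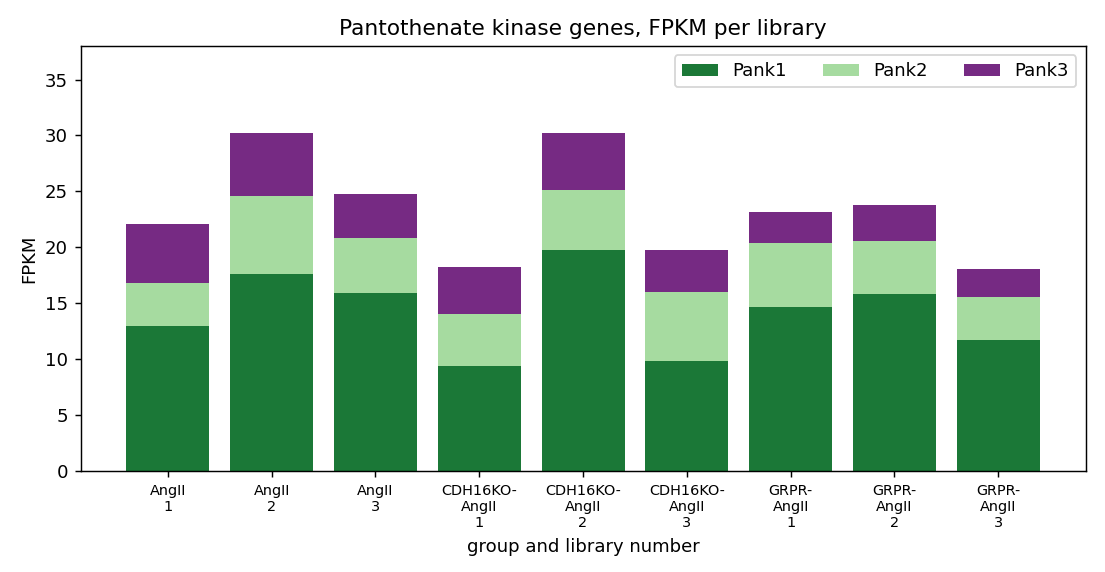
Deposited FPKM of the pantothenate kinase genes in each library, stacked (vertical axis, FPKM from 0; horizontal axis, group and library number). Pank1 is the largest block in all 9 bars, and the Pank3 block takes 12.1% to 13.9% of the bar in GRPR-AngII against 15.8% to 23.96% in AngII.

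Per length, the Pank1 share of the summed kinase FPKM was 60.4% ± 3.46 (SD, n = 3) for AngII, 55.5% ± 8.46 for CDH16KO-AngII and 64.8% ± 1.49 for GRPR-AngII. The Pank3 share was 19.5% ± 4.15, 19.5% ± 3.08 and 13.2% ± 0.967 in the same order. The sum itself was 25.7 ± 4.13 FPKM in AngII, 22.8 ± 6.53 FPKM in CDH16KO-AngII and 21.7 ± 3.15 FPKM in GRPR-AngII, which differ by less than the spread between libraries. The 3 kinase transcripts are 72.6% to 74.3% identical over 1061 to 1093 aligned bases and share no stretch at 95% identity.

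The later steps of synthesis showed no group that stood apart. Ppcs, which adds cysteine to phosphopantothenate, stood at 21.5, 29.0 and 26.7 CPM in AngII, 19.1, 30.7 and 21.4 CPM in CDH16KO-AngII, and 25.3, 37.6 and 31.8 CPM in GRPR-AngII. All groups overlapped, and in GRPR-AngII against AngII the log2 fold change was 0.30 (SE 0.21, edgeR adjusted p = 0.778). Ppcdc, the decarboxylase, stood at 24.4, 34.98 and 35.5 CPM in AngII, 45.996, 33.0 and 48.6 CPM in CDH16KO-AngII, and 42.1, 29.2 and 46.5 CPM in GRPR-AngII. In each Cre-positive group 2 libraries exceeded all AngII libraries and library 2 did not. Its log2 fold change was 0.43 (SE 0.22) in CDH16KO-AngII against AngII and 0.31 (SE 0.22, edgeR adjusted p = 0.773) in GRPR-AngII against AngII.

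Coasy, the last enzyme of the pathway, stood at 111, 143 and 95.2 CPM in AngII, 77.7, 122 and 59.1 CPM in CDH16KO-AngII, and 102, 114 and 101 CPM in GRPR-AngII. Libraries 1 and 3 of CDH16KO-AngII were the lowest of the 9, and library 2 lay among the highest. The log2 fold change of −0.43 (SE 0.25) against AngII was −0.77 when CDH16KO-AngII library 2 was left out and −0.22 when library 3 was. GRPR-AngII differed from AngII by −0.14 (SE 0.24, edgeR adjusted p = 0.902).

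**Figure D3:**
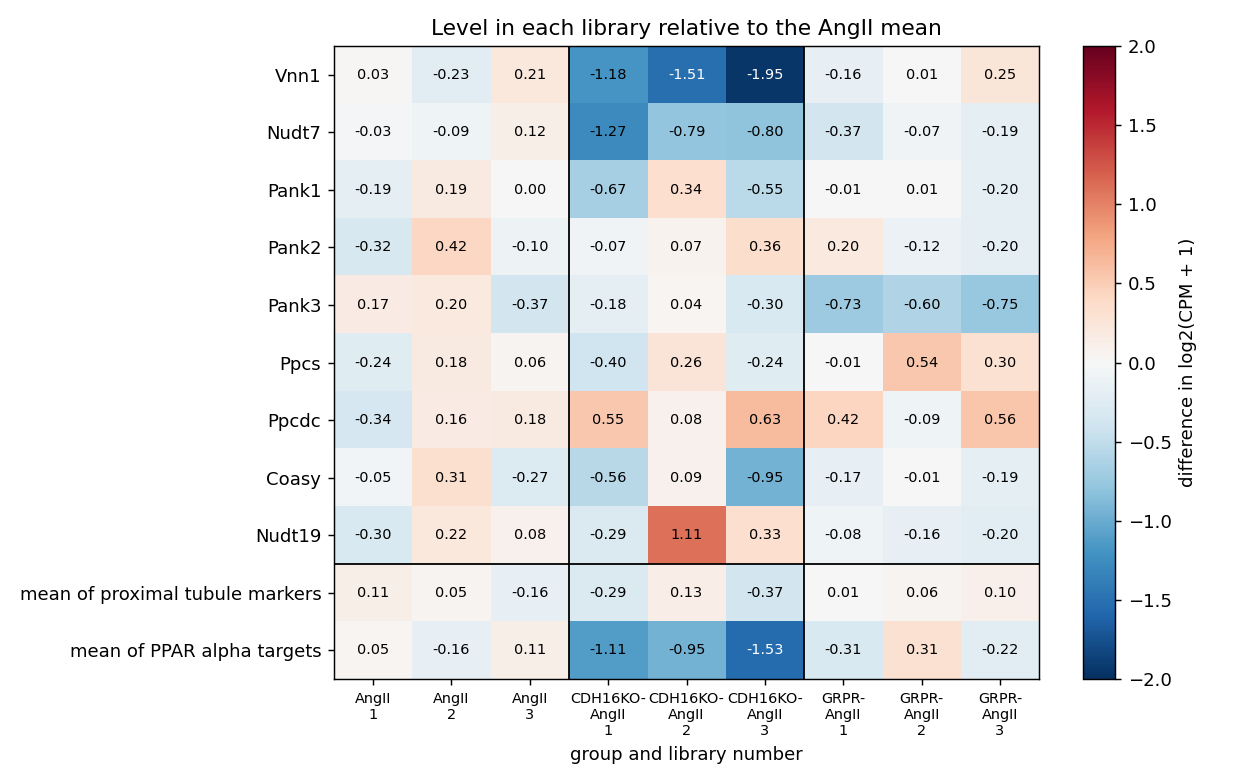
Difference of each library from the AngII mean in log2(CPM + 1) (colour and printed value) for the 9 tested genes, with the mean of 15 proximal tubule markers and of 16 PPAR alpha targets below; columns are libraries by group. In CDH16KO-AngII, Vnn1 runs from −1.18 to −1.95 and Nudt7 from −0.79 to −1.27 in all 3 libraries, while Pank1, Coasy and Nudt19 split by library.

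Libraries within a group differed more than most of the genes did between groups. CDH16KO-AngII library 2 was the highest of its group for 6 of the 9 tested genes (Pank1, Pank3, Coasy, Ppcs, Nudt7 and Nudt19), and AngII library 2 was the highest of its group for 6 (Pank1, Pank2, Pank3, Coasy, Ppcs and Nudt19). GRPR-AngII library 2 was the highest of its group for 5 (Pank1, Pank3, Coasy, Ppcs and Nudt7). Pank1, Pank3, Coasy and Ppcs were thus highest in library 2 of every group, and Vnn1 and Ppcdc in library 2 of none. Mitochondria-coded genes took 16.1% of the counts of CDH16KO-AngII library 2 against 23.4% and 26.4% in the other two libraries of that group, and their part in these values was not tested.

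Counted as a set, 9 of the 10 genes passed the filter. In CDH16KO-AngII against AngII, Vnn1 was called lower, 1 of 9, beside 0.168% of the 12507 genes tested in either direction and 0.064% lower. That comparison helped to choose the set, so nothing is read from the count. The ranges of Vnn1 and Nudt7 did not overlap, 2 of 9 against 12.2% of all genes, 2 of 9 had an unadjusted p under 0.05 against 8.45% of all genes, and 6 of 9 log2 fold changes were below 0 against 48.1% of all genes. The median was −0.17 against 0.01 for all genes tested. The Vnn1 call was lost without AngII library 1, 2 or 3 or without CDH16KO-AngII library 3, with log2 fold changes of −1.54, −1.66, −1.44 and −1.37 in those fits.

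In GRPR-AngII against AngII, 0 of 9 genes were called by edgeR, where 0% of all genes were called, and 1 had an unadjusted p under 0.05 (Pank3), against 6.74% of all genes. DESeq2 called 1 of the 9 (Pank3), where it called 0.432% of all genes. Of the log2 fold changes, 6 of 9 were below 0 against 51% of all genes, and the median was −0.07 against −0.01. In GRPR-AngII against CDH16KO-AngII, Vnn1 was called higher, 1 of 9 beside 0.144% of all genes in either direction and 0.056% higher, and 0 of 9 were called lower beside 0.088%. The ranges of Vnn1, Nudt7 and Pank3 did not overlap, 3 of 9 against 9.96% of all genes, 3 of 9 had an unadjusted p under 0.05 against 6.24%, and 4 of 9 log2 fold changes were below 0 against 52.6%. The median was 0.15 against −0.01. Leaving out CDH16KO-AngII library 3 ended that call (1.40), as did leaving out GRPR-AngII library 1 (1.67), 2 (1.60) or 3 (1.48). Each pair of these comparisons shares 3 libraries, so they are not independent of each other.

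**Figure D4:**
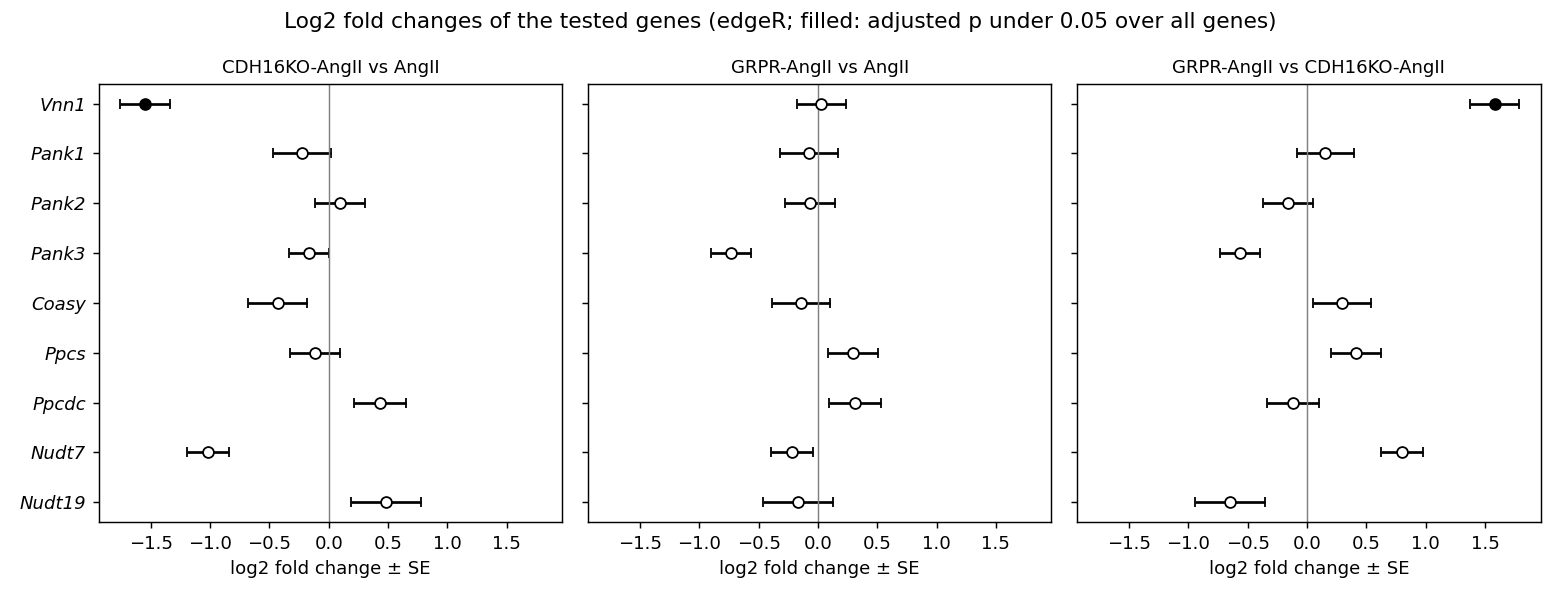
Log2 fold change of the 9 tested genes in the 3 comparisons (horizontal axes; points with bars of 1 SE from edgeR, filled where the adjusted p over all genes was under 0.05). Vnn1 (−1.55 and 1.58) is the filled point in the comparisons with CDH16KO-AngII, no point is filled in GRPR-AngII against AngII, and Pank3 (−0.73) lies farthest from 0 there.

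The other coenzyme A genes that were listed were not called. Of 9 further genes (transport of pantothenate, biotinidase, transfer of phosphopantetheine, another Nudix diphosphatase and carriers of coenzyme A), all passed the filter. By edgeR 0 were called in any comparison, with 1 at an unadjusted p under 0.05 in each, and DESeq2 called 0. The medians of their log2 fold changes were −0.14 in CDH16KO-AngII against AngII, −0.05 in GRPR-AngII against AngII and 0.11 in GRPR-AngII against CDH16KO-AngII. For all genes the medians were 0.01, −0.01 and −0.01 in that order. Over all genes edgeR called 0.168%, 0% and 0.144%, so few calls could be met among 9 genes. An unadjusted p under 0.05 was found for 8.45%, 6.74% and 6.24% of all genes. Ranges did not overlap for 1, 3 and 2 of the 9, against 12.2%, 14% and 9.96% of all genes. Slc25a42, the mitochondrial carrier of coenzyme A, stood at 95.04, 86.1 and 83.7 CPM in AngII, 52.2, 58.6 and 59.8 CPM in CDH16KO-AngII, and 51.2, 101 and 83.1 CPM in GRPR-AngII. Its CDH16KO-AngII libraries were below all AngII libraries and GRPR-AngII overlapped both, and its log2 fold change of −0.63 (SE 0.21) was not called. Pank4, a relative of the kinases that lacks their activity, had 0.36 (SE 0.17) and was not called. Among genes with the deposited KEGG annotation for pantothenate and coenzyme A synthesis, a list added after seeing the data, 9 of 10 outside the set were tested and 0 were called. In CDH16KO-AngII against AngII they ran from −1.51 to 0.36, with a median of −0.27. There 1 had an unadjusted p under 0.05 (8.45% of all genes) and 1 had ranges that did not overlap (12.2%). In GRPR-AngII against AngII they ran from −1.06 to 0.23, with a median of −0.13. There 2 had an unadjusted p under 0.05 (6.74% of all genes) and 3 had ranges that did not overlap (14%).

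Cysteamine, the other product of vanin 1, feeds into hypotaurine and taurine. Of 8 genes of cysteamine, cysteine and taurine metabolism, 7 were tested and edgeR called 0 in any comparison, with 2, 1 and 2 at an unadjusted p under 0.05 in CDH16KO-AngII against AngII, GRPR-AngII against AngII and GRPR-AngII against CDH16KO-AngII. Over all genes tested, 8.45%, 6.74% and 6.24% had an unadjusted p under 0.05 in these comparisons, in the same order. In CDH16KO-AngII against AngII all 7 had values below 0, with a median of −0.29, against 48.1% below 0 and a median of 0.01 for all genes. A relation of these values to the Vnn1 level was not tested. Cbs, which makes cystathionine on the way to cysteine, averaged 123 ± 18.2 CPM (SD, n = 3) in AngII, 88.8 ± 11.8 CPM in CDH16KO-AngII and 131 ± 11.1 CPM in GRPR-AngII, and its log2 fold change in CDH16KO-AngII against AngII was −0.47 (SE 0.16). Slc6a6, the taurine transporter, had −0.60 (SE 0.23) there.

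Vnn1 is a known target of the lipid-sensing receptor PPAR alpha, so 16 other known targets were set beside it. Like the set itself, this list was chosen with earlier results of these libraries known. The part of PPAR alpha in the Vnn1 values was not tested. All 16 had values below 0 in CDH16KO-AngII against AngII, with a median of −1.06, 12 with ranges that did not overlap, 14 at an unadjusted p under 0.05 and 0 called by edgeR. Over all genes tested, 48.1% had values below 0, 12.2% had ranges that did not overlap and 8.45% an unadjusted p under 0.05. In GRPR-AngII against AngII the median was −0.04, with 9 of 16 below 0, 0 at an unadjusted p under 0.05 and 0 called. Their mean log2(CPM + 1) was 6.91, 6.70 and 6.98 in AngII, 5.75, 5.91 and 5.33 in CDH16KO-AngII, and 6.55, 7.17 and 6.64 in GRPR-AngII. The order of libraries within AngII was the same for the targets and for Vnn1, with library 3 highest and library 2 lowest. In the other groups the order matched in part. In CDH16KO-AngII library 3 was the lowest for both, but library 2 had the highest target mean and library 1 the highest Vnn1. In GRPR-AngII library 1 was the lowest for both, and the highest were library 2 for the targets and library 3 for Vnn1. Angptl4, a secreted inhibitor of lipoprotein lipase, averaged 79.3 ± 30.1 CPM in AngII and 20.4 ± 8.70 CPM in CDH16KO-AngII, a log2 fold change of −1.96 (SE 0.37) that was not called. Cyp4a10, a fatty acid hydroxylase, had −1.70 (SE 0.33) and was not called.

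Across the 9 libraries, the genes most like Vnn1 in log2 CPM were Cpt2 (Pearson r = 0.99), Acot2 (0.97), Pxmp4 (0.96), Plaat3 (0.96) and Fbp2 (0.95), among genes with a mean FPKM of at least 2. Cpt2, the inner mitochondrial carnitine palmitoyltransferase and one of the 16 targets, averaged 147 ± 14.4 CPM (SD, n = 3) in AngII, 89.4 ± 12.4 CPM in CDH16KO-AngII and 153 ± 10.2 CPM in GRPR-AngII. Acot2 is a mitochondrial acyl-CoA thioesterase, and 30.5% of its longest transcript matches Acot1 at 95% identity, so its counts could be shared with that gene. Of these 5, edgeR called Acot2 in both comparisons with CDH16KO-AngII, lower there than in AngII by a log2 fold change of −0.87 (SE 0.13) and higher in GRPR-AngII than there by 0.89 (SE 0.13). Fbp2 was called in the second of these alone, at 1.15 (SE 0.17). EdgeR called 0.168% and 0.144% of all genes in these comparisons. The likeness of Acot2 and Fbp2 to Vnn1 was found on the same libraries. Vnn1 was chosen as low in CDH16KO-AngII, so genes picked for likeness to it tend to be low there. Nothing is therefore read from these calls. The genes most like Nudt19 were Tkfc and Mkrn1 (both 0.95), and Tkfc, a triokinase of fructose metabolism, showed the same split within CDH16KO-AngII at 204, 606 and 416 CPM. Those most like Pank1 were Zfp706 and Cd36 (both 0.97), and Cd36, the fatty acid translocase, stood at 75.8, 209 and 75.9 CPM in CDH16KO-AngII. Within the set, r was 0.84 for Vnn1 with Nudt7, 0.84 for Pank1 with Coasy, 0.72 for Pank1 with Ppcs and 0.62 for Coasy with Ppcs, the 4 highest, and −0.64 for Coasy with Ppcdc and −0.58 for Vnn1 with Nudt19, the 2 lowest. These correlations are over 9 libraries of 3 groups that share library depth and scaling, and they were picked for being extreme.

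On GRCm38 the remaining genes of the set lie at chr19 34806940 to 34879455 (Pank1), chr2 131262495 to 131299188 (Pank2), chr11 35769484 to 35791285 (Pank3), chr11 101082565 to 101086619 (Coasy), chr4 119418530 to 119422420 (Ppcs), chr9 57385095 to 57440124 (Ppcdc), chr8 114133557 to 114154739 (Nudt7) and chr7 35547185 to 35556304 (Nudt19).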

How the data were processed

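RNA-seq was done on 9 kidney libraries. Per the labels' protocols, an RNeasy kit (Qiagen) was used for extraction and the SMARTER mRNA-Seq kit for library construction. GRCm38 and mm10 are the builds in the submitters' processing notes. For alignment, counting and strand, settings were not given in the sources used here. Per the file headers, the authors deposited 1 table with a count and an FPKM value per gene and library. The deposited counts were whole numbers and were tested as counts of reads. Whether they are reads or rounded estimates is not given. The deposited FPKM values are relative to transcript length and library, and were used for the filter and for levels between genes. The table had 0 columns outside the series.

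All 9 libraries entered 1 fit of edgeR 4.0.16 (R 4.3.3): quasi-likelihood test, TMM scaling, 1 coefficient per group, a filter that kept the 12507 genes reaching FPKM 1 in 3 or more libraries, and Benjamini-Hochberg adjusted p under 0.05 over all of them as a call. SE comes from the log2 fold change and its F statistic. CPM is counts per 1e+06 after TMM scaling. The labels do not say that libraries came from separate animals, so p-values measure the spread between libraries. Replicates differed far beyond sampling noise (chi-square per gene 74.2 to 366). The tests were tested on simulated data.

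The members, gene lists and naming rule were chosen with earlier results of these data known. The rule named all 10 members, from each list the genes called and the 2 of smallest p in CDH16KO-AngII against AngII (coenzyme A, cysteamine and PPAR alpha lists), and the genes most correlated with Vnn1 (5), Nudt19 (2) and Pank1 (2). The thick ascending limb and distal markers had medians of 0.21, −0.01 and −0.29 in CDH16KO-AngII against AngII, GRPR-AngII against AngII and GRPR-AngII against CDH16KO-AngII. In the same order the medians were −0.16, 0.04 and 0.16 for collecting duct, 0.03, 0.04 and −0.02 for glomerular and vascular, −0.14, 0.92 and 0.95 for leukocyte (6 of 11 tested), and −0.73, −0.70 and 0.03 for urothelial and injured tubule markers (2 of 6 tested), with 0 called.

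Alternatives were other filters and scalings, no mitochondria-coded genes, DESeq2 1.42.0, limma 3.58.1 on log2(FPKM + 1) and log2(FPKM + 0.1), a replicate block, 2-group fits and leaving out each library. Shared sequence was searched with BLAST+ 2.17.0 at 95% identity in GENCODE M21 transcripts. Promoters come from RefSeq (GRCm38.p6). Figures used matplotlib 3.10.9 in Python 3.11.15.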

Additional observations from a re-analysis of the deposited data

How the results depend on the processing

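Over 22 alternative settings, 594 values of the 9 tested genes in 3 comparisons were recomputed: 560 kept their sign and their side of the threshold, 13 lost a call, 3 gained one and 18 changed sign. The count of other coenzyme A genes called was 0 in every setting. In CDH16KO-AngII against AngII the count of called members, 1, was 2 with DESeq2, 0 with only the 2 groups fitted, 0 with scaling to proximal tubule markers, and 0 to 1 when each library was left out. In GRPR-AngII against AngII it was 1 with DESeq2 against 0. In GRPR-AngII against CDH16KO-AngII it was 2 with DESeq2, 0 with only the 2 groups fitted, 0 with scaling to proximal tubule markers and 0 to 1 when each library was left out, against 1. The further DESeq2 call in both was Nudt7 (adjusted p = 8.65e-05 and 0.00647). DESeq2 called 210, 54 and 175 genes in all in these comparisons, against 21, 0 and 18 by edgeR. The cause of these differences was not tested, beyond the smaller number of libraries in the fits with libraries left out. Vnn1 ran from −1.76 to −1.37 in CDH16KO-AngII against AngII (adjusted p 2.59e-09 to 0.131, called in 16 of 22 settings) and from 1.34 to 1.79 in GRPR-AngII against CDH16KO-AngII (called in 15 of 22).

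Same-numbered libraries of different groups had deviations correlated at 0.11 to 0.24 for numbers 2 and 3 (6 pairs) and at −0.10 to 0.09 for number 1 (3 pairs). Not every pair exceeded 0.1 and the labels give no shared source, so the numbers were not taken to pair the libraries, though a shared factor was not tested. With the replicate block, 0 members were called in GRPR-AngII against CDH16KO-AngII (Vnn1 1.59, adjusted p = 0.0649), and the other counts of called members did not move.

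Small values changed sign. Vnn1 in GRPR-AngII against AngII was −0.060 with column totals, −0.041 with limma at a pseudocount of 1 and −0.042 at 0.1, −0.046 with marker scaling, and −0.085 to 0.14 with libraries left out. With libraries left out, Pank2 ran from −0.058 to 0.35 in CDH16KO-AngII against AngII and from −0.22 to 0.18 in GRPR-AngII against AngII. In the latter Pank1 ran from −0.16 to 0.027 and Coasy from −0.27 to 0.035. Ppcs in CDH16KO-AngII against AngII ran from −0.34 to 0.019, and was 0.026 with marker scaling, where Pank3 was 0.019. In GRPR-AngII against CDH16KO-AngII, Pank1 ran from −0.023 to 0.55, and was −0.021 with marker scaling, and Ppcdc ran from −0.27 to 0.059. Marker scaling moved the median of all genes to 0.20, −0.07 and −0.26. Depth limited Vnn3, which had 0 to 24 counts per library.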
